A study of Rattus norvegicus with 3 samples.

Results

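The transcripts of 9 regulators and repair targets of p53 were measured in P4 rat retinas after intravitreal STZ, namely Mdm2, Mdm4, Ppm1d, Sesn1, Sesn2, Ddb2, Xpc, Rrm2b and Polk. They were taken by gene symbol, and all 9 were found among the 18425 genes of the deposited table. In the same order, their NCBI gene identifiers there are 314856, 304798, 287585, 294518, 502988, 100362121, 312560, 299976 and 171525. Wild-type Sprague Dawley pups had received 1 µl into the vitreous at P1, and the retinas were collected at P4. The Buffer group received citrate buffer, the Saline group saline, and the STZ group 10 µg of streptozotocin, a nitrosourea linked to a sugar that alkylates DNA, dissolved in citrate buffer, so that Buffer is its vehicle control. Each group is 1 library of whole retina, and the sources used here do not give the number of animals behind it. For its work on retinal function and morphology the study put STZ in right eyes and buffer in the opposite eyes, and whether the Buffer and STZ libraries share animals in this way is not stated. If they do, the Saline library comes from other animals, and treatment and animal cannot be told apart in the comparisons with it. If they do not, treatment and animal cannot be told apart in STZ against buffer either. No difference therefore has a replicate check, and no p-value was computed.

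p53 is a transcription factor that is stabilised when DNA is damaged. Mdm2 is the ubiquitin ligase that marks it for breakdown, Mdm4 is a relative of Mdm2 that binds p53 and blocks its activity, and Ppm1d (Wip1) is the phosphatase that removes damage-induced phosphates from p53 and its kinases. Mdm2 and Ppm1d are themselves p53 targets, which closes a negative feedback loop. The sestrins Sesn1 and Sesn2 restrain mTORC1 through the GATOR complexes and take part in the defence against oxidants. Ddb2 and Xpc recognise DNA lesions for nucleotide excision repair, Rrm2b is the p53-inducible small subunit of ribonucleotide reductase, and Polk is a DNA polymerase that copies past damaged bases.

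Of the 9 genes, Sesn2 was the one that exceeded the fold used to call a change, and it did so against buffer but not against saline. A fold is (FPKM + 1)/(FPKM + 1), where FPKM is a read level scaled to transcript length and library size, and it was called with the cut-offs of the study, below 0.65 or above a value that lies 0.0015 over the inverse of 0.65, which is 1.538. In STZ against buffer, 1 of the 9 genes passed the upper cut-off, against 2.58% of the 14885 genes that averaged 10 counts or more over the libraries, and 0 were under 0.65, against 1.15%. In STZ against saline, 0 of the 9 passed in either direction, where the shares of all genes were 2.37% above and 1.95% below. In saline against buffer, 0 of 9 passed, against 1.01% above and 0.443% below. Against both controls together, 0 of 9 passed the upper cut-off, where 1.63% of all genes did. The median log2 fold of the 9 genes was -0.09 in STZ against buffer and -0.06 in STZ against saline, where that of the 14885 genes was 0.03 and 0.01.

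From here on, 3 values in a row stand for the Buffer, Saline and STZ libraries in that order. The libraries held 21992702, 21977843 and 22031249 estimated reads. All 9 genes had whole-number counts, and their FPKM per read differed by 0.197% to 0.966% between libraries, so that FPKM and counts order the libraries alike for all but Mdm4, whose controls are nearly equal. Transcripts of all 10 listed retinal markers were present. Of 12 microglia genes, 10 passed the upper cut-off in STZ against each control, none was at 0 in any library, and together they had 1573, 1959 and 4572 reads. The 12 pigment, ciliary and iris epithelium genes had 3059, 10030 and 3108 reads together, with 1 of them, Rpe65, at 0 in buffer, and 15 lens genes had 394, 865 and 4378, with 2 at 0 in buffer. Of 10 cycling-progenitor genes, 0 passed the fold in STZ against buffer. Of all genes 2.58% were above and 1.15% below, so a count of 0 is near the background. The folds of these 10 genes ran from 0.69 for Mki67 to 1.3 for Ccnb1, below 1 for 6 genes and above 1 for 4. Counting intervals, which cover the error of counting reads, lay below 1 for 6 and above 1 for 2. Those of 18.8% and 26.2% of all genes did so. What these other cells contribute to the values of the 9 genes was not tested. In whole tissue, fewer cells of a type and less RNA per cell cannot be told apart.

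The regions in front of the sestrin genes and of Ppm1d are shown because these 3 genes differed most between STZ and saline. Each is the 250 bases before the RefSeq transcription start in the rat assembly GRCr8, written 5′ to 3′ along the gene, whereas the reads were mapped by the authors to rn6. Capitals mark the p53 decamer (the consensus to which a p53 dimer binds), the GC box GGGCGG and the CCAAT box, each searched on both strands.
Sesn2, chr5:150005256-150005505, minus strand: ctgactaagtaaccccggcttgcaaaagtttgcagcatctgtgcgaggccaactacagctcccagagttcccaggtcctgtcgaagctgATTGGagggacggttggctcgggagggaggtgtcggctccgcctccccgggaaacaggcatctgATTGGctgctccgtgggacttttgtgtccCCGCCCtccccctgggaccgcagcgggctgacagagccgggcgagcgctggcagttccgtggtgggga
Sesn1, chr20:46948469-46948718, plus strand: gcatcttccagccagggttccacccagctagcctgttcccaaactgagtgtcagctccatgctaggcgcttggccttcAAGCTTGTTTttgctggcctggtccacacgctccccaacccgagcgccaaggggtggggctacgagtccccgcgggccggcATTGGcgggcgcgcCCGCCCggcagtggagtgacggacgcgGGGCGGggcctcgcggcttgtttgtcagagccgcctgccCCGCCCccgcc
Ppm1d, chr10:70669776-70670025, plus strand: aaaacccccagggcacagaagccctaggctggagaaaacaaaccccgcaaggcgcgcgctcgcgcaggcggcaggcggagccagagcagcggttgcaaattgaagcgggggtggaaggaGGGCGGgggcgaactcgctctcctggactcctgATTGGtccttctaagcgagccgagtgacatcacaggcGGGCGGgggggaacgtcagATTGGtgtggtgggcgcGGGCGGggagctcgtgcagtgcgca
The Sesn1 window held 1 p53 decamer, AAGCTTGTTT, at -172 to -163 from the start, and the Sesn2 and Ppm1d windows held 0. Among all 33469 such windows, 6.64% hold at least 1 decamer. The GC box occurred 1 time before Sesn2, 3 times before Sesn1 and 3 times before Ppm1d, and in 30.5% of all windows at least 1 time. In the same order these windows were 64%, 69.6% and 66.4% G or C, where the median of all windows was 51.2%. The part of base composition in the GC box counts was not tested. The CCAAT box occurred 2 times before Sesn2, 1 time before Sesn1 and 2 times before Ppm1d, against 34% of all windows with at least 1. No 2 of these matches overlap. Windows were found for 7 of the 9 genes, and those of Mdm2, Mdm4, Xpc and Polk held 0 decamers and 1 to 2 GC boxes. The TATA box TATAAA was found in 0 of the 7 windows and in 12.9% of all windows. A match describes the letters of these windows and says nothing on occupancy, and p53 elements can lie outside them.

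Per length of transcript, the order of the 9 genes was nearly the same in every library. In buffer, Mdm4 was the most abundant with an FPKM of 50.39, followed by Ppm1d with 40.16, Mdm2 with 30.21 and Sesn1 with 28.59. Xpc followed with 19.82, Sesn2 with 8.27, Rrm2b with 7.01, Polk with 3.12 and Ddb2 with 2.69. Counting intervals, which cover the error of counting reads and nothing else, overlapped between the neighbours Mdm2 and Sesn1, Sesn2 and Rrm2b, and Polk and Ddb2. In saline, Sesn1 with 30.1 stood above Mdm2 with 29.65, within overlapping intervals. In STZ the order was that of buffer, but Sesn1 no longer overlapped Mdm2 and Sesn2 no longer overlapped Rrm2b. By FPKM, Mdm4 lay at percentile 88.7 of all 18425 genes in buffer, and Ddb2 at percentile 38.4.

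**Figure D1:**
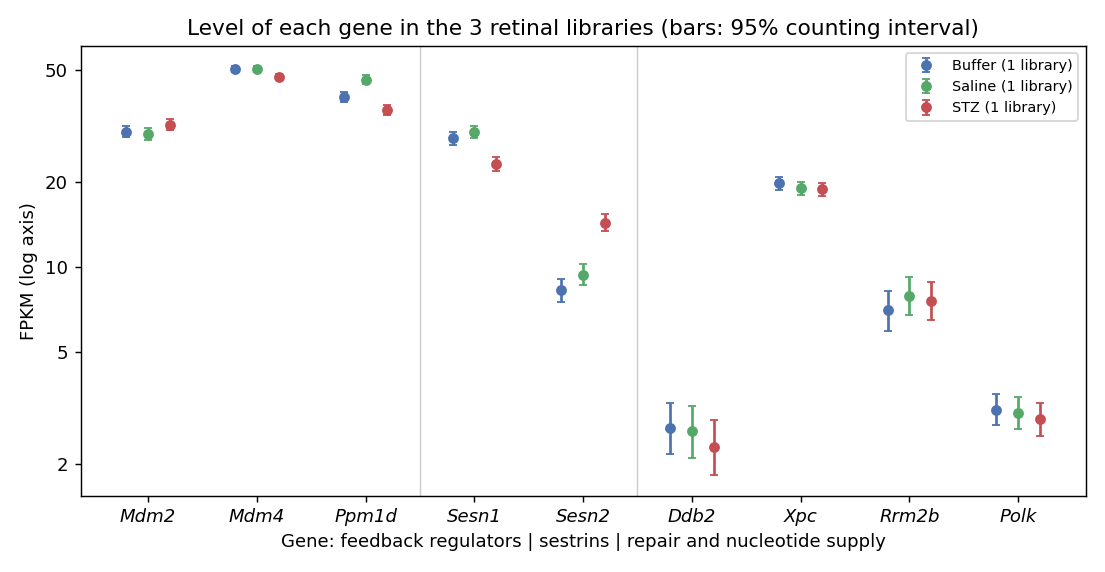
FPKM (log axis) of each gene in the Buffer, Saline and STZ libraries, 1 point per library, with bars for the 95% counting interval. The STZ point of Sesn2, at 14.37, lies above both controls at 8.27 and 9.4, that of Sesn1, at 23.23, lies below 28.59 and 30.1, and the intervals of Ddb2, Xpc, Rrm2b and Polk overlap between libraries.

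Among the feedback regulators, Mdm2 was at nearly the same level in the 3 libraries. It had 1817, 1784 and 1904 reads, with FPKM of 30.21, 29.65 and 31.95. The STZ value was the highest, though by little. The count ratio, a gene's share of the reads in one library over its share in the other, was 1.05 in STZ against buffer (exact Clopper-Pearson 95% counting interval 0.98 to 1.12) and 1.06 against saline (0.998 to 1.14). Both intervals hold 1, and both end well below the upper cut-off for a change. Saline against buffer gave 0.983 (0.92 to 1.05).

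Mdm4 was slightly lower in STZ than in either control. It had 8536, 8529 and 8022 reads and FPKM of 50.39, 50.41 and 47.32. The controls were nearly equal, with a count ratio of 1.0 for saline against buffer (0.97 to 1.03) whose direction turned with the scaling, and the STZ library lay below both. The ratio was 0.938 against buffer (0.91 to 0.967) and 0.938 against saline (0.91 to 0.967). A difference of this size was common, since 54.2% of the 14885 genes differed at least as much between the controls as Mdm4 did between STZ and buffer.

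Ppm1d differed between the controls by more than it differed between STZ and buffer. It had 2365, 2720 and 2127 reads, with FPKM of 40.16, 46.24 and 36.05. Saline was the highest and STZ the lowest of the 3. The count ratio was 0.898 in STZ against buffer (0.846 to 0.952), 0.78 against saline (0.737 to 0.826) and 1.15 in saline against buffer (1.09 to 1.22). The saline library is also the one with the most reads from pigment, ciliary and iris epithelium genes, 10030 against 3059 in buffer. Aldh1a1 alone had 6838 of these against 1904, and Ttr went the other way, with 398 against 477. The part of these genes in the Ppm1d value was not tested. Both STZ intervals lay below 1. Between the controls, 34.6% of the 14885 genes differed at least as much as Ppm1d did between STZ and buffer. For STZ and saline this share was 13.1%.

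The sestrins went apart. Sesn2 was higher and Sesn1 lower in STZ than in both controls. Sesn2 had 451, 512 and 785 reads and FPKM of 8.27, 9.4 and 14.37. The STZ value stood clear of both controls, and saline lay a little above buffer. The fold was 1.66 against buffer and 1.48 against saline, which is just short of the upper cut-off. The count ratio was 1.74 against buffer (1.55 to 1.96) and 1.53 against saline (1.37 to 1.71), while saline against buffer gave 1.14 (0.999 to 1.29). Of the 14885 genes, 4.62% had a count ratio in STZ against buffer at least as high as Sesn2, and 3.88% differed between the controls by as much in either direction. Reads of the microglia genes were also highest in STZ, and all 12 of them had intervals above 1 against each control. Those of the lens genes were highest there too, at 394, 865 and 4378. The part of either set of genes in the Sesn2 value was not tested.

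Sesn1, whose window printed above holds the decamer, had 1534, 1623 and 1254 reads and FPKM of 28.59, 30.1 and 23.23. The STZ library was the lowest, and the controls overlapped within counting error. The count ratio was 0.816 in STZ against buffer (0.757 to 0.88) and 0.771 against saline (0.715 to 0.83), while saline against buffer was 1.06 (0.987 to 1.14). The folds of 0.819 and 0.779 did not reach 0.65. Between the controls, 16.9% of the 14885 genes differed by at least the amount that separated STZ from buffer for Sesn1. The reads of the cycling-progenitor genes, summed over 10 genes, were also lowest in STZ, at 41564, 41238 and 35639, of which Mki67 alone had 14620, 14608 and 10042. Without Mki67 the sums were 26944, 26630 and 25597, and the part of these genes in the Sesn1 value was not tested.

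The third sestrin, Sesn3, was the most abundant per length and was, like Sesn1, lowest in STZ. It had 18139, 18871 and 14820 reads and FPKM of 112.46, 116.92 and 88.66. The count ratio was 0.816 in STZ against buffer (0.798 to 0.834) and 0.783 against saline (0.767 to 0.801). In shares of summed FPKM, Sesn2 made up 5.54% of the 3 sestrins in buffer (5.06 to 6.05), 6.01% in saline (5.52 to 6.52) and 11.4% in STZ (10.7 to 12.1). Of Sesn1 and Sesn2 alone, Sesn1 made up 77.6% in buffer, 76.2% in saline and 61.8% in STZ (59.6 to 63.9). The STZ interval does not meet those of the controls, which start at 75.7% and 74.3%.

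**Figure D2:**
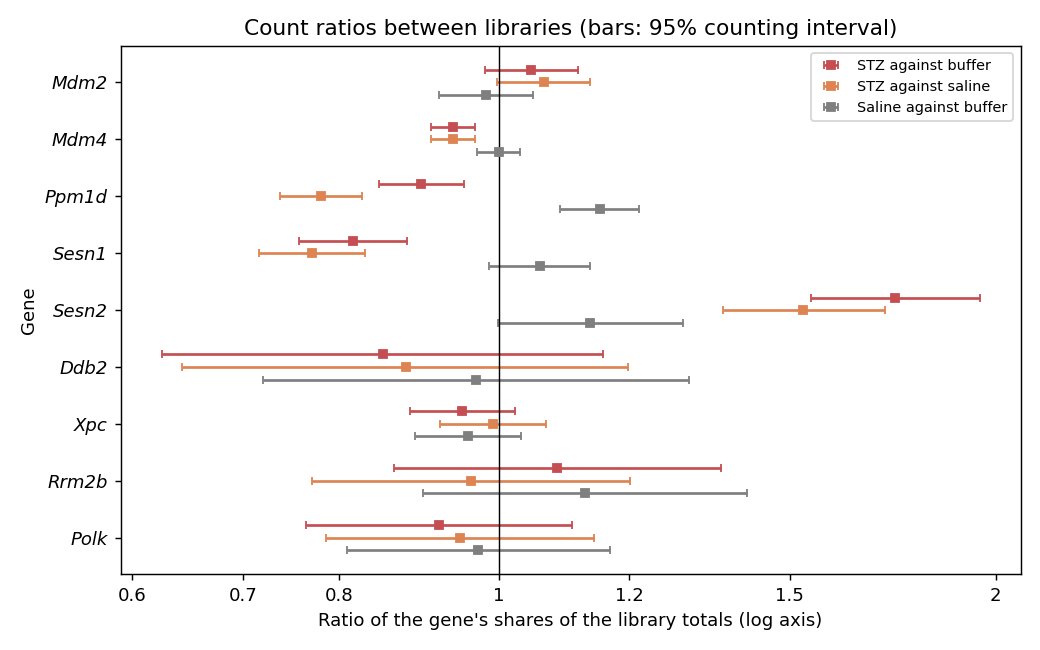
Ratio of each gene's shares of the library totals (log axis) for the STZ library set against each control and for the controls against each other, with 95% counting intervals. Sesn2 lies at 1.74 and 1.53 in the STZ comparisons, Sesn1 at 0.816 and 0.771, and Ppm1d is at 1.15 between the controls, while all intervals of Ddb2, Xpc, Rrm2b and Polk hold 1.

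The 4 repair and nucleotide supply genes showed no difference that counting error could not give. Ddb2, the damage-binding partner of Ddb1, had the fewest reads, 95, 92 and 81, and FPKM of 2.69, 2.61 and 2.3. Its count ratio in STZ was 0.851 against buffer (0.625 to 1.16) and 0.878 against saline (0.643 to 1.2). At this depth a ratio as low as 0.65 against either control was within counting error, while ratios at the upper cut-off lay outside both intervals. Xpc, the general lesion sensor, had 1483, 1420 and 1412 reads and FPKM of 19.82, 19 and 18.84. Its ratio was 0.95 against buffer (0.883 to 1.02) and 0.992 against saline (0.921 to 1.07), so the STZ and saline libraries were nearly equal.

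Rrm2b lay between the controls in STZ. It had 150, 169 and 163 reads and FPKM of 7.01, 7.92 and 7.6. The ratio was 1.08 against buffer (0.864 to 1.36) and 0.962 against saline (0.771 to 1.2). Polk had 244, 237 and 225 reads, with FPKM of 3.12, 3.04 and 2.88. Its ratio was 0.921 against buffer (0.765 to 1.11) and 0.947 against saline (0.786 to 1.14). All of these intervals end below the upper cut-off.

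By position, STZ was above both controls for 2 of the 9 genes, Mdm2 and Sesn2, and below both for 6, namely Mdm4, Ppm1d, Sesn1, Ddb2, Xpc and Polk. Over the 14885 genes, STZ was above both for 44.9% and below both for 35.5%. With the counting interval as the criterion, Sesn2 was higher in STZ against both controls, 1 of 9 genes against 19.4% of all, and Mdm4, Ppm1d and Sesn1 were lower against both, 3 of 9 against 14.8%. Taken singly, 26.2% of all genes were higher by this criterion against buffer and 26.9% against saline, and 18.8% and 23.5% were lower. Between the controls, 1 of 9 genes, Ppm1d, was higher in saline, against 15.9% of all, and 0 were lower, against 12% of all. The criterion is met easily by abundant genes. Of the 5679 genes that averaged 1000 counts or more, 59.8% had an interval that excluded 1 in STZ against buffer, 67.1% against saline and 39.9% between the controls. Of the 5 genes described here with that depth, 3 did so in STZ against each control and 1, Ppm1d, between the controls.

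Of Mdm2, Rrm2b, Polk and Ddb2, each set beside its partner genes, Mdm2 alone had a share in STZ whose interval lay apart from those of both controls. Mdm2 made up 37.5% of the summed FPKM of Mdm2 and Mdm4 in buffer (36.3 to 38.7), 37% in saline (35.8 to 38.2) and 40.3% in STZ (39.1 to 41.5). The STZ interval lies above both control intervals, although neither gene passed the fold. Rrm2b made up 9.55% of Rrm2 and Rrm2b in buffer (8.18 to 11.1), 9.34% in saline (8.07 to 10.7) and 11.3% in STZ (9.76 to 13), with overlapping intervals. Rrm2, the small subunit of cycling cells, had 3351, 3876 and 3017 reads, the same order of libraries as Ppm1d. Polk made up 7.1% of the summed FPKM of Polk, Polh, Poli and Rev1 in buffer, 6.89% in saline and 6.2% in STZ, also within overlapping intervals. Ddb2 made up 1.28% of Ddb1 and Ddb2 in buffer (1.04 to 1.57), 1.32% in saline (1.06 to 1.61) and 1.14% in STZ (0.903 to 1.41), again with overlapping intervals.

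**Figure D3:**
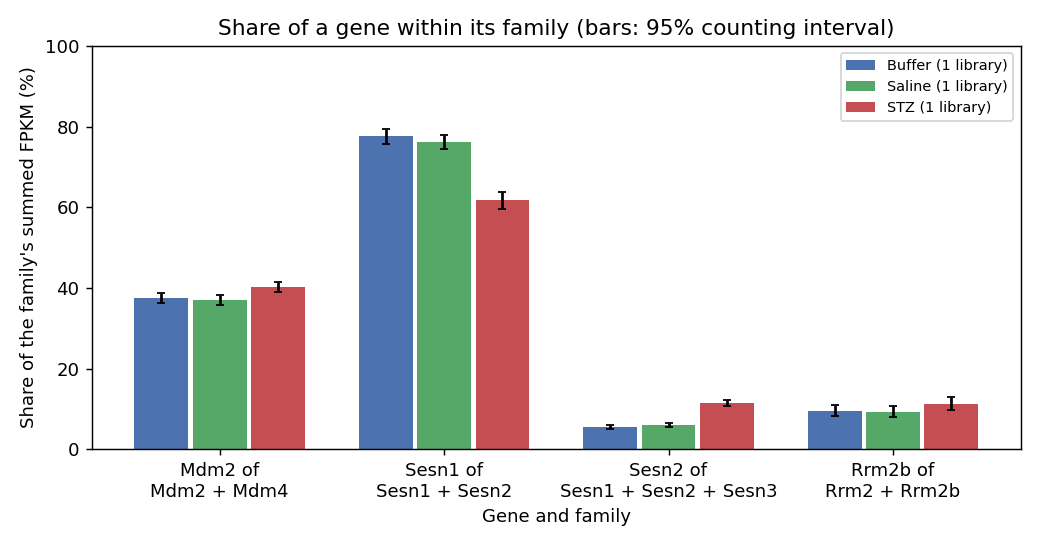
Share (%) of a gene in the summed FPKM of its family, in the Buffer, Saline and STZ libraries, with 95% counting intervals. Sesn1 makes up 61.8% of Sesn1 and Sesn2 in STZ, against 77.6% and 76.2% in the controls, and Sesn2 11.4% of the 3 sestrins against 5.54% and 6.01%.

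Among other p53 targets, several passed the fold. Of 21 listed targets of cell cycle arrest, death and other functions that averaged 10 counts or more, 9 passed the upper cut-off in STZ against buffer and 7 in STZ against saline, where 2.58% and 2.37% of all genes did. None of the 21 was below 0.65 in either comparison, where 1.15% and 1.95% of all genes were. In saline against buffer 0 passed, where 1.01% of all genes were above and 0.443% below. For 21 genes, counts of 0 are near these shares. Pmaip1, with 2, 5 and 26 reads, and Fas, with 3, 5 and 28, met the minimum count only through the STZ library, which was looked up after their values were seen, and without them 8 of 19 passed against buffer and 6 against saline. The median log2 fold of the 21, Pmaip1 and Fas among them, was 0.46 against buffer and 0.38 against saline. With no minimum count, so that no gene was kept through its reads in STZ, the medians over the 23 listed genes found were lower, 0.32 and 0.35. The 7 that passed against both controls were Cdkn1a, the inhibitor of cyclin-dependent kinases, Ccng1, which encodes cyclin G1, the Akt repressor Phlda3, the death receptor Eda2r, the death effectors Bbc3 and Pmaip1, and the detoxifying hydrolase Ephx1. Their folds against buffer ran from 1.92 for Bbc3 to 4.61 for Phlda3. The lowest fold of the list was that of Tnfrsf10b, 0.726 against buffer and 0.753 against saline, with 25, 23 and 8 reads. Its count ratio against buffer was 0.319 (0.125 to 0.731), since the added 1 in the fold shrinks the differences of low genes. The list was drawn up with results of these libraries known, so its direction is not independent evidence.

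Ranked by the fold in STZ against buffer together with these 21 genes, Mdm4 left out because it is not counted among the targets here, Sesn2 took place 9 of 29. Rrm2b was at place 18, Mdm2 at 20, Xpc at 21, Polk at 22, Ppm1d at 25, Ddb2 at 26 and Sesn1 at 27. Against saline Sesn2 was at place 10, and Sesn1 at 28. The order keeps Pmaip1 at place 5 and Fas at place 11 in both comparisons. Both met the minimum count only through the STZ library, so their places are not independent of it. Without them the genes ranked below would move up.

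**Figure D4:**
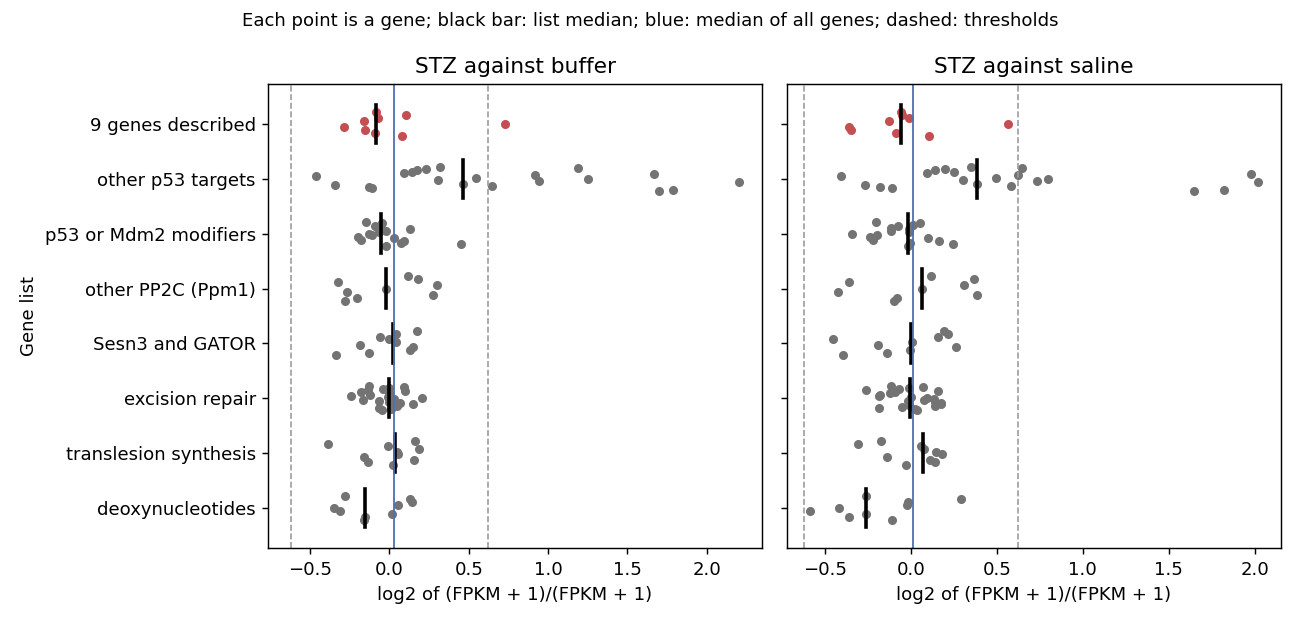
log2 fold of every gene that averaged 10 counts or more in the 9 genes described and 7 lists of related genes, for STZ against buffer and STZ against saline. Sesn2 is the red point past the upper dashed threshold against buffer and nearest to it against saline. Of the 7 lists of related genes, only the other p53 targets have points past it. Their medians are 0.46 and 0.38, and 0.32 and 0.35 with no minimum count. Among those targets, Pmaip1 and Fas met the minimum count only through the STZ library.

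In the 6 other lists of the pathway, of 9 to 24 genes each, 0 passed the fold in STZ against either control. With 2.58% and 1.15% of all genes past it against buffer, and 2.37% and 1.95% against saline, a count of 0 is near the background and is no result about these lists, which are given for their values. Of 17 genes whose products modify or bind p53 or Mdm2, 0 passed in either direction against either control, with median log2 folds of -0.05 and -0.02. The highest fold was that of Usp2, a deubiquitinase of Mdm2, 1.36 against buffer and 1.18 against saline, from 136, 164 and 217 reads. The lowest was that of the acetyltransferase gene Kat5 against buffer, 0.871, and of the coactivator gene Crebbp against saline, 0.788. Crebbp had 3671, 4300 and 3435 reads and was higher in saline than in buffer, as Ppm1d was. Of 9 other phosphatases of the Ppm1 group, 0 passed, and their folds against buffer ran from 0.8 for Ppm1k to 1.23 for Ppm1h. Against saline they ran from 0.746 for Ppm1f to 1.31 for Ppm1e.

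Of Sesn3 and 9 genes of the GATOR complexes and their sensors, through which sestrins reach mTORC1, 0 passed. Sesn3 had the lowest fold against buffer, 0.79, and Nprl3, a GATOR1 subunit, the highest, 1.13. Against saline the extremes were Gatsl3 at 0.731, from only 8, 21 and 8 reads, and Wdr59 at 1.2. Of 24 core genes of nucleotide excision repair, the pathway of Ddb2 and Xpc, 0 passed, with median log2 folds of -0.0049 and -0.0054. Ercc4, a nuclease subunit, was lowest against buffer at 0.844 and the helicase gene Ercc2 highest at 1.15. Against saline Gtf2h2 was lowest at 0.834 and Cetn2, which binds Xpc, highest at 1.13.

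Of 10 partners of Polk in translesion synthesis, 0 passed. Pcna, the sliding clamp of replication, had the lowest fold, 0.766 against buffer and 0.807 against saline, from 3074, 2908 and 2355 reads. The highest were Ube2a against buffer at 1.14 and Mad2l2 against saline at 1.13. Of 9 genes of deoxynucleotide supply, the pathway of Rrm2b, 0 passed, and their median log2 folds were -0.15 against buffer and -0.26 against saline. Thymidine kinase Tk1 was lowest against buffer, at 0.785, and Dck lowest against saline, at 0.665, close to the lower cut-off. Dguok was highest against buffer at 1.11 and Tyms highest against saline at 1.22. Counting intervals of 5 of the 9 lay below 1 in each STZ comparison, as did those of 18.8% and 23.5% of the 14885 genes.

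The genes whose pattern over the 3 libraries lay nearest to that of Sesn2 were Ctsc, Rcvrn, Lrrc3, Cib2 and Dscaml1. The distance between log2(FPKM + 1) values centred over the libraries was 0.029 for Ctsc and 0.037 for Dscaml1, among 11801 genes that averaged 100 counts or more. With 3 libraries a pattern has few degrees of freedom, and 36 genes lay within a distance of 0.1. Rcvrn, which encodes the photoreceptor protein recoverin, had 1087, 1184 and 1775 reads.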

How the data were processed

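Retinal RNA of 3 libraries, 1 each for Buffer, Saline and STZ, was sequenced on an Illumina HiSeq after TruSeq preparation. The authors trimmed the reads, mapped them with TopHat2, discarded reads with several genomic locations, and computed FPKM with a custom R script. The build rn6 is from the submitters' processing notes, and the annotation, the counter and its strand setting are not given in the sources used here. The deposited values are FPKM, TPM and estimated counts, which are not all whole. The deposited FPKM gave the folds, as in the methods of the study, and the deposited TPM was an alternative. The estimated counts, deposited without normalization, were rounded and gave count ratios with exact Clopper-Pearson intervals at the 95% level. As no molecular identifiers mark the original molecules, the intervals cover counting error only. The joint table and the separate tables of the libraries held the same values.

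The 9 genes and the lists were chosen with earlier results of these data known, and the thresholds are those of the study. The genes named were all 9, the list genes past the fold against both controls, the highest and lowest of each list, and the 5 genes nearest to the gene with the largest fold. Listed genes were found by symbol or by RefSeq synonym, and those without a match were not used here. Promoter windows are from RefSeq, GRCr8. No count model was fitted, since each group has 1 library. The choices varied were the pseudocount (0.1), the cut-offs (2 and 0.5), the unit (TPM, CPM from the counts), TMM factors (edgeR 4.0.16), size factors (DESeq2 1.42.0, R 4.3.3), the counting interval as the call, the mean of both controls, and minima of 0 or 50 counts for lists. Python 3.11.15, pandas 2.3.3, scipy 1.17.1 and matplotlib 3.10.9 were used, and the calculations were tested on simulated data.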

Additional observations from a re-analysis of the deposited data

How the results depend on the processing

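Of 144 recomputed folds of the 9 genes, 143 stayed within the counting interval of the reported fold and no called fold changed direction. The exception was Ppm1d in STZ against buffer, 0.838 against the mean of both controls. Mdm4 in saline against buffer ran from 0.985 to 1.00 and lay on both sides of 1. The fold of Sesn2 ran from 1.62 to 1.73 against buffer, was 1.56 against the mean of both controls, and ran from 1.46 to 1.52 against saline, where no alternative reached the upper cut-off, which lies just over 1.538. With thresholds of 2 and 0.5, 0 of the 9 genes were higher in STZ against buffer. With the counting interval as the call, 3 genes were lower in STZ than in buffer, against saline 1 was higher and 3 lower, and 1 was higher in saline than in buffer. With a pseudocount of 0.1, 1 gene of the sestrin and GATOR list was lower in STZ against saline and 1 higher in saline against buffer. With that pseudocount, 10 of the other p53 targets were higher in STZ against each control, 1 was lower in the STZ library than in buffer, 1 lower than in saline, and between the controls 2 were higher and 1 lower in saline. With a minimum of 50 counts, 8 of these targets were higher against buffer and 6 against saline, and with TMM factors 8 and 7. A smaller pseudocount gives genes of few reads more weight. The family shares moved by less than counting error with TPM. No paired analysis was possible because each group has 1 library, and no replicate could be left out. Depth limits Ddb2 most, with 81 to 95 reads.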
